A study of Mus musculus with 6 samples.

Results

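Antigen presentation by the major histocompatibility complex (MHC) was examined through 10 genes in the livers of C57BL/6J mice after 3 days on high-cholesterol food (HCD) or on regular food (RD). The 10 genes were picked by their symbol among the 20673 genes of the deposited tables. Of these, 5 serve class II presentation (Cd74, H2-Aa, H2-Ab1, H2-Eb1 and H2-DMa) and 5 serve class I presentation (B2m, H2-K1, H2-D1, Tap1 and Tapbp). All 10 were found, and all 10 passed the filter on low counts.

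RNA from whole liver was sequenced in 6 libraries, 3 from RD mice and 3 from HCD mice, with 13771630 to 23129576 counts on genes per library. The HCD contained cholesterol, cocoa butter and sodium cholate, the RD was a standard rodent diet, and RNA was taken after the diet with no other treatment named in the labels. The strain is inbred and carries no transgene, male and female mice were used in the study, and the sex and age of each liver were not labelled. Hepatocyte markers summed to 95715 to 143413 CPM (counts scaled to library size with TMM factors) in the 6 libraries, and Alb and Apoa1, the most abundant of the 8, did not pass the test of diet (adjusted p = 0.608 and 0.618 in edgeR). Of the 8, 1 was higher with HCD by DESeq2, where 3.88% of all genes were. It was Ttr, with a log2 fold change of 0.59 (adjusted p = 0.0144 in DESeq2 and 0.143 in edgeR). Female cells transcribe Xist, and 5032 counts of it were found in HCD replicate 1 alone, the sole library without counts of 4 Y-linked genes. Library names follow the diet, and whether the 2 diets were processed together cannot be told from the labels, so diet and any preparation batch cannot be told apart.

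MHC class I molecules sit on nearly all nucleated cells and show peptides made inside the cell to CD8+ T cells. A polymorphic heavy chain pairs with beta-2 microglobulin, and peptides cut by the proteasome are pumped into the endoplasmic reticulum (ER) by the TAP transporter and loaded there with the help of tapasin. MHC class II molecules are made mainly by professional antigen-presenting cells, which in liver are Kupffer cells, dendritic cells and B cells, with a contribution from sinusoidal endothelium. Their alpha and beta chains are escorted by the invariant chain to endosomes, where H2-DM exchanges the invariant chain remnant for a peptide taken from outside the cell. Mice of the C57BL/6 background make no E alpha chain, so that the beta chain encoded by H2-Eb1 lacks its usual partner. In a bulk liver sample, fewer cells of a type and less RNA per cell cannot be told apart.

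The levels of the 10 transcripts ranged widely per unit of gene length. Levels between genes are given as FPKM, which the authors scaled by gene length. With RD, B2m, the class I light chain, stood highest at 2603 ± 264 FPKM (SD, n = 3), followed by the heavy chains H2-K1 at 783 ± 32.7 FPKM and H2-D1 at 304 ± 15.6 FPKM. Cd74, the invariant chain, was the leading class II transcript at 55.3 ± 28.1 FPKM and lay within its spread of Tapbp (tapasin), at 39.3 ± 6.27 FPKM. The 3 class II chains H2-Eb1, H2-Ab1 and H2-Aa followed at 18.4 ± 9.96, 18.1 ± 13.2 and 14.1 ± 9.0 FPKM and could not be ordered within their spread. Tap1, a subunit of the peptide transporter, was at 9.04 ± 0.597 FPKM, within the spread of the class II chains. H2-DMa, a chain of the peptide exchanger, was lowest at 2.81 ± 0.665 FPKM. With HCD the means kept this order, from B2m at 3164 ± 553 FPKM to H2-DMa at 4.18 ± 0.721 FPKM.

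None of the 10 members passed an adjusted p of 0.05 in edgeR's quasi-likelihood test of HCD against RD. Over all 13105 genes tested, 3.27% did. At an unadjusted p under 0.05, Cd74 and H2-D1 were higher with HCD and Tap1 was lower, 3 of 10 members where 20.9% of all genes tested passed in either direction (11.1% as higher and 9.81% as lower). DESeq2's Wald test passed Cd74 (adjusted p = 0.0131) and H2-D1 (adjusted p = 0.00906), both higher, 2 of 10 members where 6.97% of the genes it tested passed (3.88% as higher and 3.09% as lower). Livers of the diets did not overlap for 3 of 10 members, H2-K1, H2-D1 and Tap1, where 27.6% of all genes tested did not. All 5 class II members had a positive log2 fold change (log2FC, HCD over RD), as did 4 of the 5 class I members, where 50.7% of all genes did. The median log2FC was 0.80 for class II and 0.26 for class I, beside 0.0074 over all genes tested. The class II median was 0.49 without HCD replicate 1 and 1.46 without RD replicate 3, and the class I median was 0.11 without HCD replicate 3 and 0.075 with a correction for gene length.

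**Figure D1:**
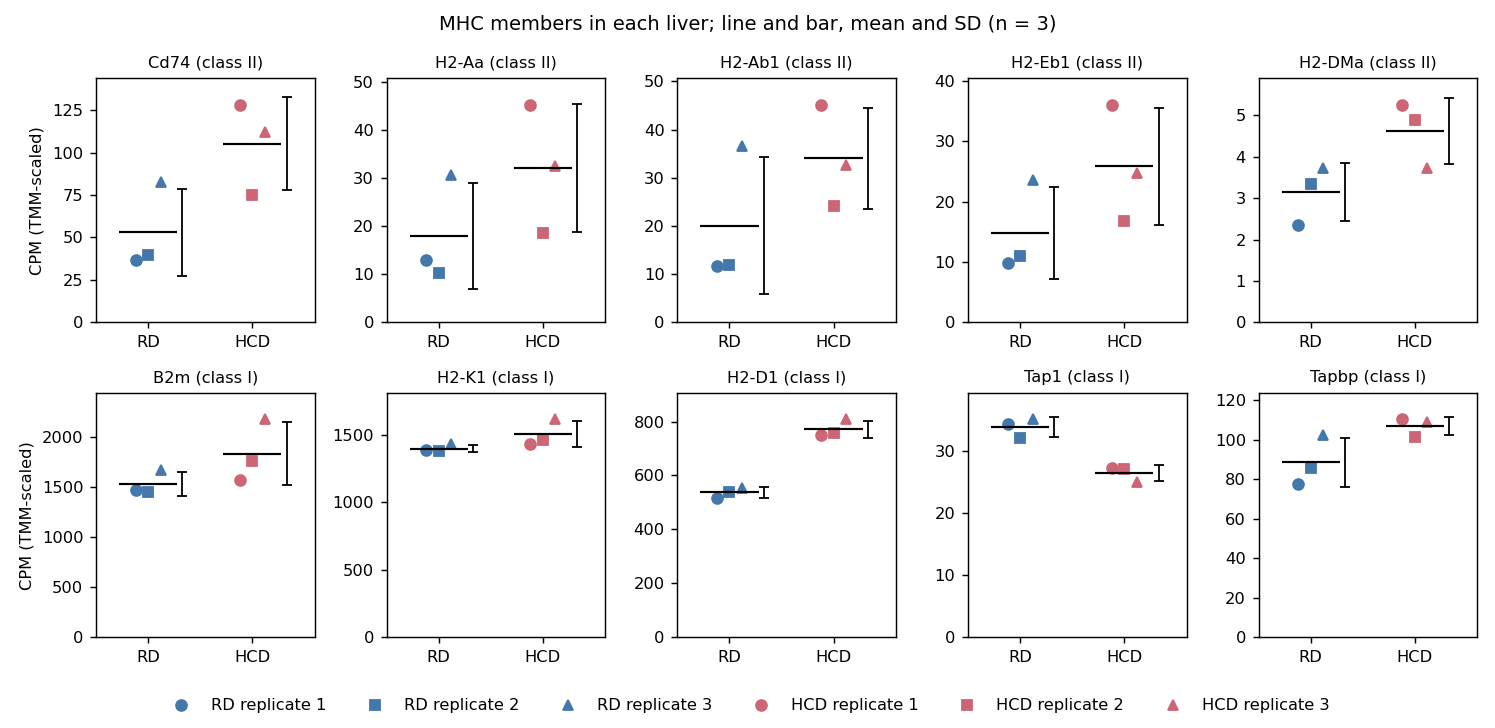
TMM-scaled CPM of the 10 members (vertical axes, each from 0) in the 3 RD and 3 HCD livers. Points are single livers, horizontal lines the mean and bars the SD (n = 3). The diets separate for H2-D1, Tap1 and, by a narrow margin, H2-K1, while RD replicate 3 lies inside or near the HCD range for the class II genes.

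Class II transcripts were higher on average with HCD, and Cd74 and the 3 class II chains varied more between livers of 1 diet than H2-DMa or the class I members did. Cd74 had 36.6, 39.8 and 82.8 CPM in the RD livers (replicates 1, 2 and 3) and 128, 75.3 and 112 CPM in the HCD livers. RD replicate 3 thus lay above HCD replicate 2, and the diets overlapped. The Cd74 log2FC was 0.99 (standard error, SE, 0.33), a fold of 1.98, with an adjusted p = 0.139 from edgeR. Leaving out RD replicate 3 raised it to 1.46 and it then passed the test (adjusted p = 0.0434), in a fit where 1.09% of all genes passed.

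The chains of the A molecule, the class II protein that C57BL/6 mice do assemble, had RD replicate 3 among the high livers as well. H2-Aa, the alpha chain, had 12.9, 10.3 and 30.6 CPM in the RD livers (replicates 1, 2 and 3) and 45.3, 18.6 and 32.5 CPM in the HCD livers. H2-Ab1, the beta chain, had 11.7, 11.9 and 36.6 CPM with RD and 45.2, 24.2 and 32.7 CPM with HCD. For both chains RD replicate 3 exceeded HCD replicate 2, and for H2-Ab1 it also exceeded HCD replicate 3. The log2FC values were 0.84 (SE 0.44, adjusted p = 0.317) for H2-Aa and 0.76 (SE 0.44, adjusted p = 0.369) for H2-Ab1. Within a liver the log2 ratio of H2-Aa to H2-Ab1 in CPM differed by -0.016 between the diet means, against an SD of 0.22 in each diet.

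H2-Eb1 had 9.76, 11.02 and 23.7 CPM in the RD livers and 36.1, 16.8 and 24.7 CPM in the HCD livers, a log2FC of 0.80 (SE 0.38, adjusted p = 0.273). H2-DMa had 2.36, 3.35 and 3.73 CPM with RD and 5.26, 4.89 and 3.73 CPM with HCD, where the lowest HCD liver and the highest RD liver were level. The H2-DMa log2FC was 0.56 (SE 0.32, adjusted p = 0.356). Without RD replicate 3 the log2FC values of H2-Aa, H2-Ab1 and H2-Eb1 were 1.47, 1.52 and 1.32, none of them past the threshold (adjusted p = 0.0955, 0.0525 and 0.0921). Without HCD replicate 1, the liver with Xist counts, they were 0.50, 0.49 and 0.48, and that of Cd74 was 0.82. Leaving out RD replicate 1 lowered H2-Ab1 to 0.48, and leaving out RD replicate 2 lowered H2-Aa to 0.56 and H2-Ab1 to 0.49.

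**Figure D2:**
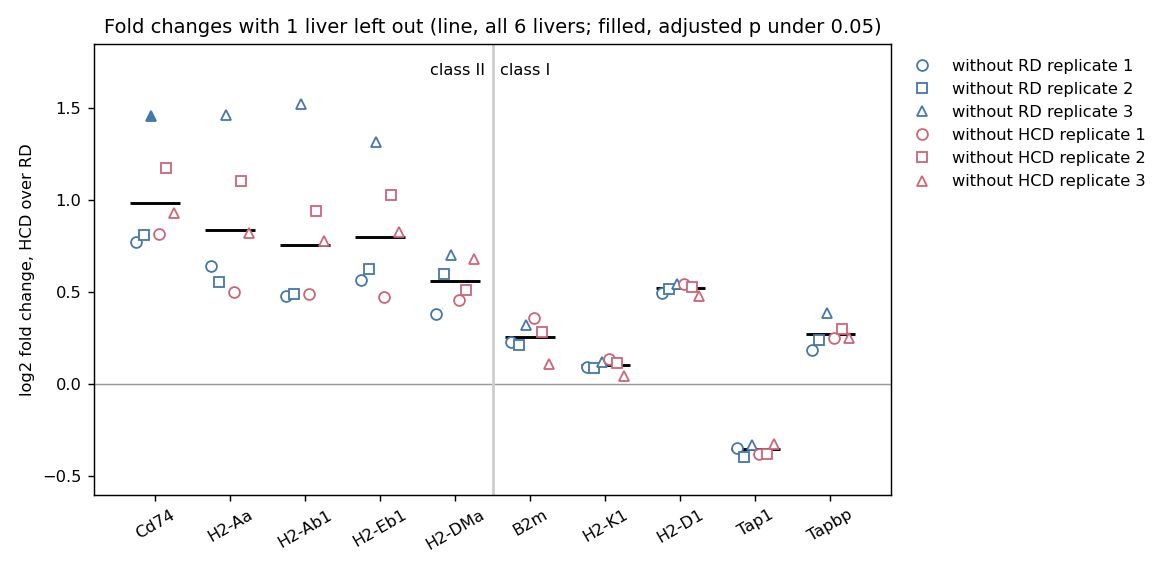
Log2FC of HCD over RD (vertical axis) for each member, with all 6 livers (line) and with 1 liver left out (points, filled where the adjusted p was under 0.05). The class II points spread widely, with the highest from the fits without RD replicate 3, and Cd74 in that fit is the only filled point, while those of H2-K1, H2-D1 and Tap1 stay within a narrow band.

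Because H2-Aa and H2-Eb1 varied together over the livers, the bases before their starts are shown. They are the 250 bases upstream of the RefSeq start on GRCm38.p6, read 5′ to 3′ on the gene's strand. Capitals mark ATTGG or its reverse complement, the letters of the CCAAT-type Y box that NF-Y binds in MHC promoters. The H2-Aa window is chr17:34287824-34288073 on the minus strand and the H2-Eb1 window is chr17:34305617-34305866 on the plus strand.
H2-Aa: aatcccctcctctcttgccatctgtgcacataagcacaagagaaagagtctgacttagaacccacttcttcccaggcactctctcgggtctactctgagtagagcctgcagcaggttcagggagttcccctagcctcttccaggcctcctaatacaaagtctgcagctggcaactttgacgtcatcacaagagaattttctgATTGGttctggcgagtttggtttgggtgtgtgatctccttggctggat
H2-Eb1: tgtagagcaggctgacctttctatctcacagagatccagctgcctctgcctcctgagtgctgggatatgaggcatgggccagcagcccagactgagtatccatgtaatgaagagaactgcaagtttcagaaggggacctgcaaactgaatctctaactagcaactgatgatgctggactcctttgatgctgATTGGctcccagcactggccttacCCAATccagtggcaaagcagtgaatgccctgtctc
The first letter of ATTGG lay 48 bases before the start of H2-Aa and 59 bases before that of H2-Eb1, and H2-Eb1 held a second copy, on the other strand, 35 bases before its start. On either strand, ATTGG was present in 33.8% of the 32851 promoter windows of the same length. Windows were at hand for 8 of the 10 members and not for Cd74 and H2-Ab1.

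Class I transcripts differed less between livers, and the members differed in the sign of their log2FC. H2-D1, a classical heavy chain, had 518, 538 and 555 CPM in the RD livers (replicates 1, 2 and 3) and 750, 757 and 808 CPM in the HCD livers. The diets did not overlap, and the lowest HCD liver exceeded the highest RD liver by more than the range within either diet. The H2-D1 log2FC was 0.52 (SE 0.14), a fold of 1.44, with an adjusted p = 0.0834 from edgeR and 0.00906 from DESeq2. Its adjusted p lay between 0.00906 and 0.300 over the 17 alternatives, and its log2FC between 0.46 and 0.56.

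H2-K1, the other classical heavy chain of this strain, had 1384, 1377 and 1430 CPM with RD and 1432, 1463 and 1613 CPM with HCD. Its highest RD liver was just below its lowest HCD liver, and this separation was not tested under other library scaling. The H2-K1 log2FC was 0.11 (SE 0.15, adjusted p = 0.734) and 0.042 to 0.14 with 1 liver left out. The log2 ratio of H2-D1 to H2-K1 within a liver, which does not depend on how libraries are scaled, was -1.42, -1.36 and -1.37 with RD and -0.93, -0.95 and -0.997 with HCD. The diet means differed by 0.42 on the log2 scale, against an SD of 0.034 with RD and 0.033 with HCD (exact two-sided permutation test, p = 0.1, the smallest that 3 livers against 3 allow).

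**Figure D3:**
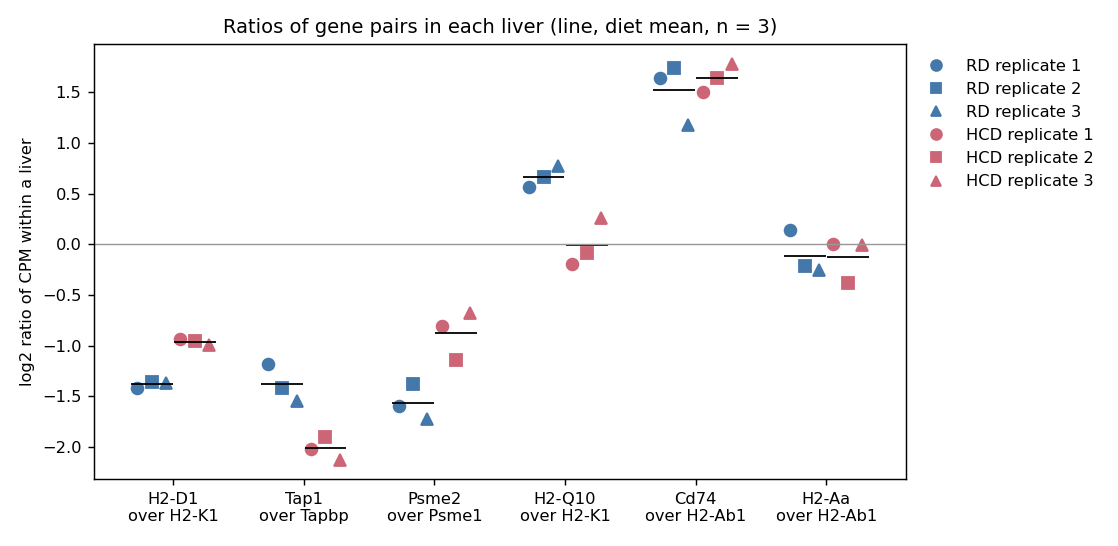
Log2 ratio of the CPM of 2 genes within a liver (vertical axis) for 6 pairs, with points for single livers and lines for diet means (n = 3). The diets separate for H2-D1 over H2-K1, Tap1 over Tapbp, Psme2 over Psme1 and H2-Q10 over H2-K1, and overlap for the class II pairs. The ratios computed and not drawn, H2-K1 over B2m, Cd74 over H2-K1 and H2-Eb1 over H2-Ab1, also overlap. The share of all gene pairs whose ratios separate was not computed.

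The H2-K1 and H2-D1 genes are close paralogs, and their upstream windows are shown because the log2FC values of the genes differed. Capitals mark ATTGG on either strand and, as the run of 10 capitals, the enhancer A element of class I promoters that NF-kB factors bind. H2-K1 has 2 RefSeq starts, and the window of the upstream one is given, chr17:34000348-34000597 on the minus strand of GRCm38.p6. The window of the downstream start, not shown, held ATTGG on both strands, 30 and 6 bases before that start, and H2-D1 likewise has it on both. The H2-D1 window is chr17:35262844-35263093 on the plus strand.
H2-K1: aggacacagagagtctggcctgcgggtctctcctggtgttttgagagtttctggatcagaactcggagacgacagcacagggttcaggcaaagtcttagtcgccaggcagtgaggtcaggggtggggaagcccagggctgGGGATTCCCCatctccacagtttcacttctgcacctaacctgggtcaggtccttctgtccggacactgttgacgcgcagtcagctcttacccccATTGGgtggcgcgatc
H2-D1: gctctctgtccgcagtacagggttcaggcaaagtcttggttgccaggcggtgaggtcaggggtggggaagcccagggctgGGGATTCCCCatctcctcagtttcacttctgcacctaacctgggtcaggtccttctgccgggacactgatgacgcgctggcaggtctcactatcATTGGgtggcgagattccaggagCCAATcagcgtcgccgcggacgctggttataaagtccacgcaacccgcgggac
In their best local alignment the 2 windows were identical in 161 of 177 columns (91.0%). Both held the same 10 letters of enhancer A, which were present on either strand in 28 of 32851 windows (0.0852%).

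The transcripts of H2-K1 and H2-D1 aligned over 1387 columns at 90.6% identity. At 95% identity or more over at least 200 bases, H2-D1 shared sequence with H2-Q10, H2-Q1, H2-Q7, H2-T22 and predicted genes, and H2-K1 with H2-Q4, H2-Q6, H2-Q10 and others. Counts of these heavy chains are therefore uncertain to the extent that reads were split between copies. Tap1 and Psmb9 overlap over 212 bases, H2-DMa and Brd2 over 316 bases, and Tapbp and an antisense gene over 307 bases, each at 100% identity, and the use of strand in counting was not stated in the sources.

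B2m had 1471, 1448 and 1671 CPM with RD and 1564, 1759 and 2173 CPM with HCD. The diets overlapped, since RD replicate 3 exceeded HCD replicate 1. The B2m log2FC was 0.26 (SE 0.18, adjusted p = 0.449), and it was 0.11 without HCD replicate 3 and 0.014 after a correction of the trend of fold change with gene length. At 860 bases of exon, B2m is the shortest of the members.

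The peptide loading genes had log2FC values of opposite sign. Tap1 had 34.4, 32.1 and 35.1 CPM with RD and 27.3, 27.2 and 25.0 CPM with HCD. All HCD livers lay below all RD livers, and Tap1 was the sole member with a negative log2FC, -0.35 (SE 0.13, adjusted p = 0.163). Tapbp had 77.8, 85.6 and 102.2 CPM with RD and 110, 101.5 and 109 CPM with HCD, a log2FC of 0.27 (SE 0.14, adjusted p = 0.301), with HCD replicate 2 just below RD replicate 3. The log2 ratio of Tap1 to Tapbp was -1.38 ± 0.19 in the RD livers and -2.01 ± 0.11 in the HCD livers (SD, n = 3), a difference of -0.64, and the diets did not overlap (exact two-sided permutation test, p = 0.1, the smallest possible here).

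Class II and class I were contrasted by the mean log2(CPM + 0.5) of the 5 members of each class in a liver. Class II means were 3.49, 3.57 and 4.65 in the RD livers and 5.15, 4.33 and 4.73 in the HCD livers, a difference of 0.84 between diets. Class I means were 8.28, 8.29 and 8.43 with RD and 8.45, 8.46 and 8.57 with HCD, a difference of 0.16. The SD between livers of 1 diet was 0.64 (RD) and 0.41 (HCD) for class II and 0.084 (RD) and 0.067 (HCD) for class I. The class II differences were thus larger, the class I values were tighter, and the diets overlapped for class II and not for class I. The class I margin was narrow, with RD replicate 3 at 8.429 and HCD replicate 1 at 8.447. Whether it holds under other library scaling was not tested.

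Class II minus class I was -4.79, -4.72 and -3.78 in the RD livers (replicates 1, 2 and 3) and -3.30, -4.13 and -3.84 in the HCD livers. RD replicate 3 lay above HCD replicates 2 and 3. The difference between diets was 0.67, against an SD of 0.56 with RD and 0.42 with HCD, and it is given without a test because it is a score over chosen genes. It was 0.44 without HCD replicate 1 and 0.998 without RD replicate 3.

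Within the classes, the 10 pairs of class II members had Pearson's r of log2 CPM between 0.64 and 0.98 (median 0.96) over the 6 livers. The 10 pairs of class I members ranged from -0.96 to 0.98 (median 0.67), with the negative end from pairs that include Tap1, and the 25 pairs between classes from -0.68 to 0.98 (median 0.54). These values describe 6 livers that share diet as a factor. Over 9108 other genes averaging 5 CPM or more, those with the highest r to the class II mean were Msn, Elk3, Pdcd5, Kng2 and Itga9 (0.997 to 0.990). Msn, the first of these, had 13.5, 13.5 and 23.7 CPM with RD and 29.7, 21.3 and 25.0 CPM with HCD. For the class I mean they were Nmi, Zfp358, Hs1bp3, Ip6k2 and Keap1 (0.986 to 0.981). Nmi, the first of these, had 10.8, 10.95 and 15.1 CPM with RD and 14.1, 16.2 and 19.3 CPM with HCD. None of these 10 genes passed the edgeR test (adjusted p from 0.106 to 0.476).

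Of the wider class II machinery, 11 further genes of loading and processing were listed, 10 were in the tables and 9 were tested. None passed the edgeR test, 4 were higher at an unadjusted p under 0.05 (11.1% of all genes tested were), and 8 of the 9 had a positive log2FC, with a median of 0.70. Ifi30, the lysosomal thiol reductase that unfolds antigens, had 10.6, 9.56 and 13.9 CPM with RD and 18.6, 19.2 and 21.1 CPM with HCD, a log2FC of 0.78 (SE 0.18, adjusted p = 0.0584). Its livers separated by diet, as did those of the endosomal protease Lgmn, with a log2FC of 0.70 (SE 0.19, adjusted p = 0.0849). DESeq2 passed both as higher (adjusted p = 0.0297 and 0.0223), where 3.88% of all genes passed as higher. The list's tallies include H2-DMb2, which passed the low-count filter through its HCD livers alone, so that no support is read from its part in them. Ctss, the protease that trims the invariant chain, had a log2FC of 0.71 (SE 0.28, adjusted p = 0.202), with overlapping diets.

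The most abundant genes of that list, beside Lgmn, were Ctsl, another lysosomal protease, and March8, a ubiquitin ligase that targets class II among other membrane proteins. Ctsl had a log2FC of -0.024 (SE 0.27) and March8 one of 0.23 (SE 0.18). H2-DMb2, a beta chain of the peptide exchanger, had 6, 2 and 6 counts with RD and 15, 28 and 37 with HCD, and since it entered the test only through its HCD livers, its adjusted p (0.0598 in edgeR and 0.00862 in DESeq2) is given as a description. It shares 1071 bases at 95.9% identity with H2-DMb1, whose log2FC was 0.68 (SE 0.50, adjusted p = 0.474).

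**Figure D4:**
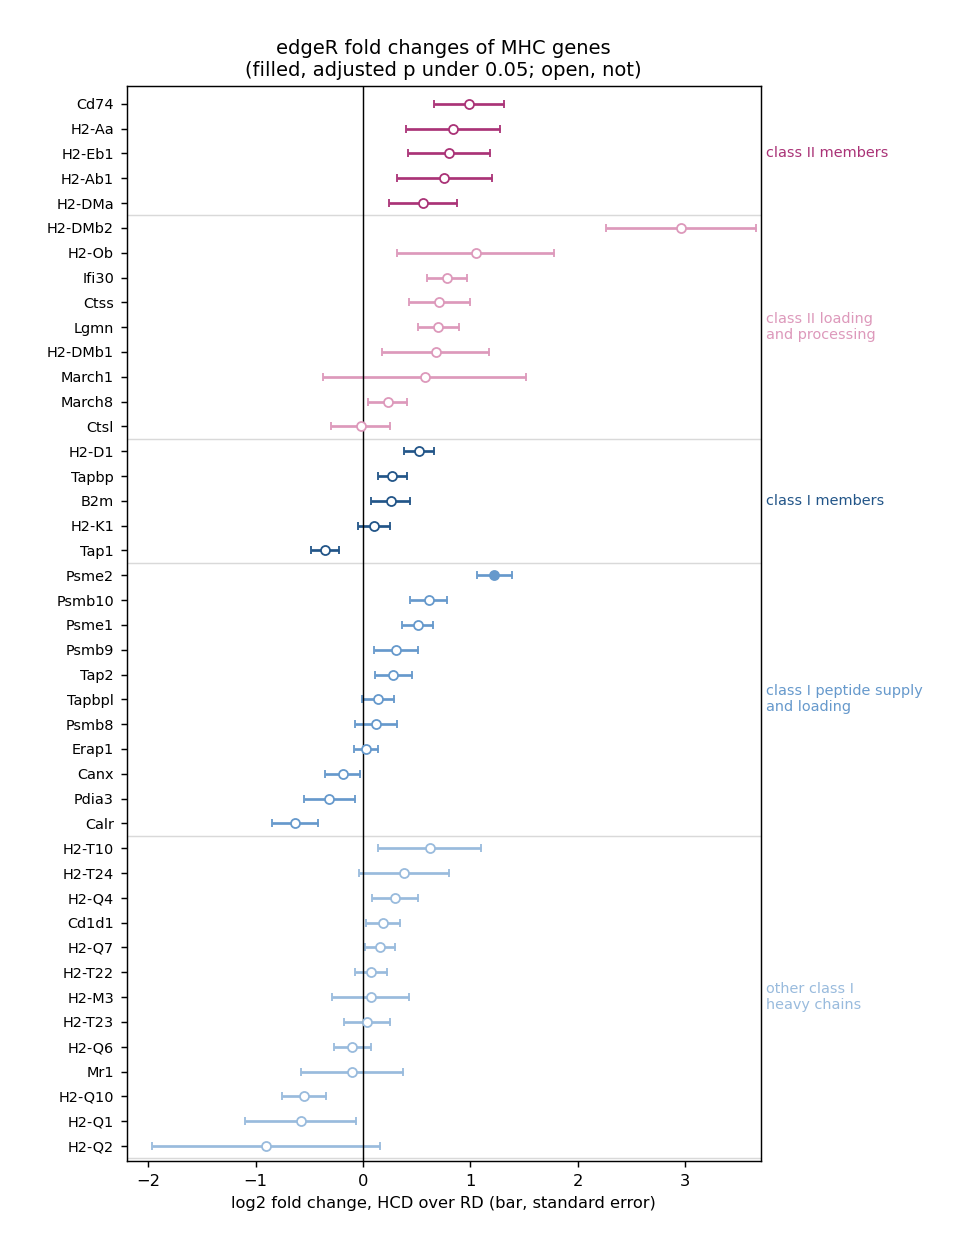
Log2FC of HCD over RD with its SE (horizontal axis) for the members and the 3 lists of related genes, grouped by class, with filled points at an adjusted p under 0.05. Psme2 is the only filled point, class II genes lie mostly to the right of 0, and class I genes lie on both sides.

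Of 11 genes of class I peptide supply and loading, all were tested and 1, Psme2, passed the edgeR test, where 1.95% of all genes passed as higher. At an unadjusted p under 0.05, 3 were higher and 1 was lower (11.1% and 9.81% of all genes). DESeq2 passed 1 as higher (Psme2) and 1 as lower (Calr), beside 3.88% and 3.09% of the genes it tested. HCD and RD livers separated fully in 4 of the 11 genes, 3 of them higher and 1 lower, beside 27.6% of all genes. Psme2, the beta subunit of the PA28 activator of the proteasome, had 24.8, 23.6 and 24.1 CPM with RD and 53.5, 46.9 and 68.6 CPM with HCD, a log2FC of 1.22 (SE 0.16, adjusted p = 0.0128). It did not pass without RD replicate 1 (adjusted p = 0.0698) or RD replicate 2 (adjusted p = 0.0708). Its transcript shares 794 bases at 99.4% identity with the retrogene Psme2b, a gene looked up after the Psme2 values were seen. Psme2b was lower with HCD, at an adjusted p = 0.0712 from edgeR, with 29.9, 27.3 and 37.0 CPM with RD and 20.5, 15.2 and 21.2 CPM with HCD. The sum of both was 55.6 ± 5.14 CPM in the RD livers and 75.3 ± 13.8 CPM in the HCD livers (SD, n = 3), a difference of 0.43 on the log2 scale (exact two-sided permutation test, p = 0.1, the smallest possible here). The part of reads shared by the copies in the Psme2 value was not tested.

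Psme1, the alpha subunit of PA28, had a log2FC of 0.51 (SE 0.14, adjusted p = 0.0952), and Psmb10, an immunoproteasome subunit, one of 0.61 (SE 0.17, adjusted p = 0.0973). Livers separated by diet for both. The other immunoproteasome subunits, Psmb9 and Psmb8, had 0.31 and 0.12 (adjusted p = 0.420 and 0.776), and Tap2, the partner of Tap1, had 0.28 (SE 0.17, adjusted p = 0.377). The 3 most abundant genes of the list were ER lectins and oxidoreductases that fold many glycoproteins beside class I. Calr had 1098, 960 and 958 CPM with RD and 457, 697 and 787 CPM with HCD, a log2FC of -0.63 (SE 0.22, adjusted p = 0.148, and 0.0223 in DESeq2), with no overlap between diets, and those of Pdia3 and Canx were -0.31 and -0.19 (adjusted p = 0.484 and 0.536). With 1 liver left out Pdia3 ran from -0.55 (without HCD replicate 3) to -0.087 (without HCD replicate 1), and Canx from -0.35 (without HCD replicate 2) to -0.096 (without HCD replicate 1).

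Of 14 other class I heavy chains and class I-like genes, 13 were in the tables and tested, and none passed the edgeR test, with 1 lower at an unadjusted p under 0.05 (9.81% of all genes) and the same 1 by DESeq2 (3.09% of all genes). The median log2FC was 0.073, with 8 above 0 and 5 below. That 1 was H2-Q10, a non-classical heavy chain that hepatocytes secrete, which had 2054, 2178 and 2443 CPM with RD and 1256, 1381 and 1933 CPM with HCD. Its log2FC was -0.55 (SE 0.21, adjusted p = 0.181, and 0.0400 in DESeq2), and the diets did not overlap. Its transcripts share 345 bases at 95.4% identity with those of H2-D1, and the part of shared reads in either value was not tested. The log2 ratio of H2-Q10 to H2-K1 was 0.67 ± 0.10 in the RD livers and -0.0037 ± 0.24 in the HCD livers (SD, n = 3), a difference of -0.67 (exact two-sided permutation test, p = 0.1). H2-T23 (Qa-1) and Cd1d1, which presents lipids, had log2FC values of 0.038 (SE 0.21) and 0.19 (SE 0.16).

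None of 9 transcription factors of MHC genes passed the edgeR test, 2 (Nfya and Creb1) were lower at an unadjusted p under 0.05, where 9.81% of all genes were, and DESeq2 passed none. Ciita, the master activator of class II, was low at 0.99 ± 0.60 CPM (SD, n = 3) with RD and 2.10 ± 1.03 CPM with HCD, and its diets overlapped (log2FC 1.06, SE 0.61, adjusted p = 0.363). Nlrc5, the activator of class I, had a log2FC of -0.43 (SE 0.22, adjusted p = 0.297). Nfya, a subunit of the Y box factor NF-Y, had -0.77 (SE 0.24, adjusted p = 0.127), while its more abundant partners Nfyb and Nfyc had -0.0047 and -0.24. Rfxank, a subunit of the RFX complex on class II promoters, had -0.051 (SE 0.25), and Creb1 had -0.59 (SE 0.23, adjusted p = 0.194).

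None of 9 genes of the interferon gamma axis passed either, while Ifngr1 and Ifngr2 (higher) and Jak1 (lower) had an unadjusted p under 0.05, 3 of 9 where 20.9% of all genes did, and DESeq2 passed none. The receptor chains Ifngr1 and Ifngr2 had log2FC values of 0.47 and 0.42 (adjusted p = 0.201 and 0.212), the kinase Jak1 had -0.38 (adjusted p = 0.163), and Irf1 and Irf2, transcription factors of the interferon response, had -0.25 and 0.12 (adjusted p = 0.546 and 0.763). Of 6 costimulatory genes 3 were tested and none passed in edgeR or DESeq2, with 1 of 3 higher at an unadjusted p under 0.05 (11.1% of all genes). Cd86, the ligand of CD28, had 1.39, 1.26 and 2.26 CPM with RD and 3.89, 2.55 and 3.57 CPM with HCD (log2FC 1.02, SE 0.40, adjusted p = 0.196). Cd274 (PD-L1) and Icosl had 0.52 (SE 0.50) and 0.12 (SE 0.62). With 1 liver left out Cd274 ran from 0.057 (without HCD replicate 1) to 0.75, and Icosl from -0.094 to 0.70.

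Markers of the cells that could carry class II RNA were set beside it. Of 12 Kupffer cell markers all had a positive log2FC (median 0.84), none passed the edgeR test, 5 were higher at an unadjusted p under 0.05 (11.1% of all genes) and 4 were higher by DESeq2 (3.88% of all genes). Summed over the list, the RD livers held 177, 218 and 283 CPM and the HCD livers, in order of replicate, 516, 461 and 234 CPM. HCD replicate 3 was thus within the RD range for Kupffer markers, and its summed class II level of 206 CPM, of which Cd74 made up 112 CPM, was above those of the RD livers (73.3 to 177 CPM). Singly, H2-Ab1 in HCD replicate 3 was below RD replicate 3, and H2-DMa was level with it. Cd5l and Clec4f, the most abundant, had log2FC values of 1.21 (adjusted p = 0.101) and 0.82 (adjusted p = 0.170). The lowest of the 12 were Adgre1 at 0.24 (SE 0.52) and Cd163 at 0.019 (SE 0.32). Without HCD replicate 2 they were -0.029 and -0.20.

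Of 10 markers shared by leukocytes, all had a positive log2FC (median 0.98) and Fcer1g, the common Fc receptor gamma chain, passed the edgeR test, 1 of 10 where 1.95% of all genes passed as higher. At an unadjusted p under 0.05, 7 were higher (11.1% of all genes), and DESeq2 passed 2, Fcer1g and Coro1a (3.88% of all genes). Fcer1g had 4.18, 4.26 and 5.43 CPM with RD and 11.02, 14.1 and 11.8 CPM with HCD, a log2FC of 1.41 (SE 0.22, adjusted p = 0.0201), and it did not pass without RD replicate 1 (adjusted p = 0.112), RD replicate 2 (adjusted p = 0.102) or HCD replicate 3 (adjusted p = 0.0546), nor with the replicate number as a block (adjusted p = 0.0558). The summed level of the leukocyte markers was 121 to 153 CPM with RD and 171 to 197 CPM with HCD. Of that sum, 81.8 to 120 CPM came from Lcp1, with a log2FC of 0.10, and Laptm5, the next most abundant, had 0.69 (SE 0.27, adjusted p = 0.197). Ptprc (CD45) and Arhgdib had 0.10 (SE 0.41) and 0.41 (SE 0.45), with overlapping diets, and Ptprc had -0.40 without HCD replicate 1.

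Sinusoidal endothelial markers, all 8 tested and none passing, summed to 141, 125 and 215 CPM with RD and 234, 151 and 161 CPM with HCD, so that RD replicate 3 and HCD replicate 1 were the highest livers, as they were 2 of the 3 highest for class II. The median log2FC of the endothelial list was 0.18, with the most abundant, Clec4g and Fcgr2b, at 0.21 and 0.56, and with Stab1 and Lyve1 at -0.28 and -0.60. With 1 liver left out Clec4g ran from 0.046 to 0.51 and Fcgr2b from 0.34 to 0.89. Stab1 ran from -0.46 to -0.093 and Lyve1 from -0.88 to -0.24, and each of these high ends was without RD replicate 3. B cell markers summed to 10.3 to 18.6 CPM with RD and 7.86 to 22.2 CPM with HCD, with 4 of 10 tested and 3 of the 10 under 1 CPM in every liver. The most abundant was Ighm, with a log2FC of -0.51 (SE 0.42), while Cd22, Cd79b and Ighd had 1.32 (SE 0.60), 0.92 (SE 0.56) and 1.5 (SE 0.84), and the median of the 4 was 1.121. With 1 liver left out Ighm ran from -0.86 to -0.15, Cd79b from 0.61 to 1.35 and Ighd from 0.92 to 2.95, with the high ends of the latter pair without RD replicate 3 and all 3 low ends without HCD replicate 1. The diets overlapped for each of the 4. Dendritic cell markers, 4 of 9 tested with a median log2FC of 0.45, summed to 5.77 to 9.33 CPM with RD and 6.07 to 11.8 CPM with HCD. The most abundant, Zbtb46 and Clec9a, had -0.49 and 0.10, while Itgax and Ccr7 had 1.32 (SE 0.73) and 0.80 (SE 1.14). With 1 liver left out Itgax ran from 0.76 to 1.78, and Ccr7 from 0.24 to 4.22 (without RD replicate 3). In those fits Zbtb46 ran from -0.94 to -0.32 and Clec9a from -0.26 to 0.51. Monocyte markers summed to 36.2 to 49.7 CPM with RD and 51.5 to 79.5 CPM with HCD, with Lyz2 at 0.67 and Plac8 at 0.77 in log2FC (adjusted p = 0.148 and 0.175). Lyz2 alone made up 30.8 to 43.1 CPM of that sum with RD and 39.1 to 70.5 CPM with HCD, and its diets overlapped. Ccr2 and Ly6c2 had 0.21 (SE 0.45) and 0.81 (SE 0.56). T and NK cell markers, 2 of 11 tested, and neutrophil markers, 3 of 5 tested, stayed at or under 6.98 CPM in sum, with Cd4 at -0.90 and Lck at 0.13, and S100a9 at 0.74 and Csf3r at -0.10, in log2FC. Cholangiocyte markers summed to 37.4 to 91.9 CPM with RD and 64.5 to 98.1 CPM with HCD, with a median log2FC of 0.60, and the most abundant, Spp1 and Sox9, had 0.13 and -0.012. None of the markers of these further lists passed the edgeR test. The part of any of these cell types in the class II values was not tested.

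**Figure D5:**
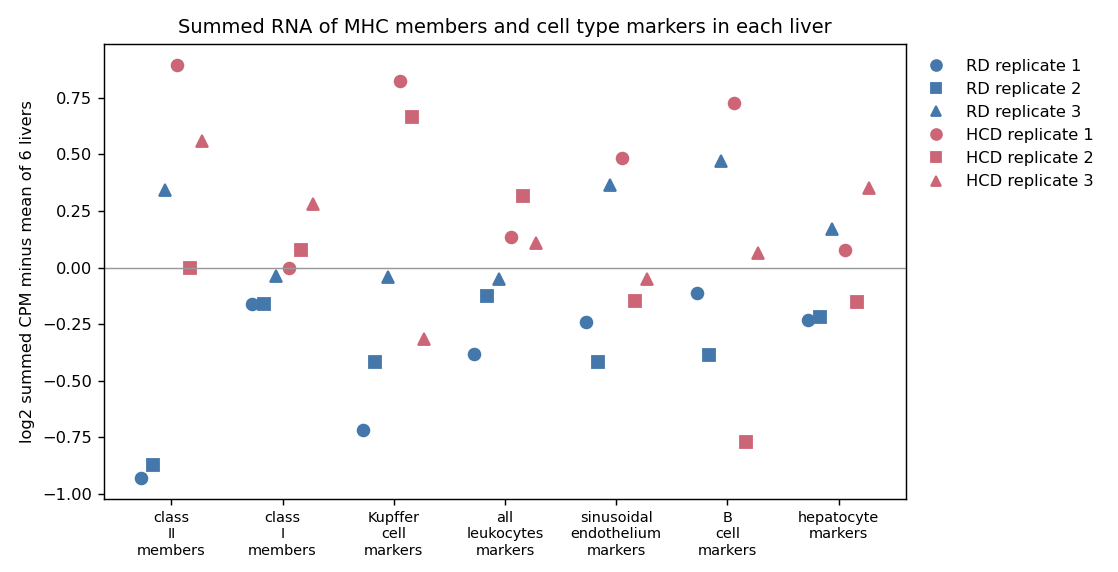
Log2 of summed CPM minus the mean of the 6 livers (vertical axis) for the class II and class I members and 5 marker lists, 1 point per liver. For class II, HCD replicates 1 and 3 are highest and RD replicates 1 and 2 lowest, and HCD replicate 3 is high for class II and not for Kupffer cell markers.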

How the data were processed

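Liver RNA of 3 RD and 3 HCD mice was analysed, with groups from the sample labels. Read counts per gene were deposited without normalization (13771630 to 23129576 per library), and the authors also deposited FPKM, used for levels between genes and in alternatives. STAR, HTSeq, DESeq2, edgeR and GRCm39 are named in the submitters' processing notes without role or version. Gene lengths implied by the deposited values equalled GENCODE M21 (GRCm38) within 0.1% for 94.8% to 95.0% of genes. The log2 fold changes and p-values that the authors deposited were not used. Symbols turned into dates (21) were restored by identifier.

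edgeR 4.0.16 (R 4.3.3) was run with filterByExpr (13105 genes), TMM factors and a quasi-likelihood test of diet, with p adjusted by Benjamini-Hochberg across the 13105 genes and a threshold of 0.05. Standard errors are the log2 fold change over the root of F. The code was tested on simulated data. Alternatives (17) used DESeq2 1.42.0, other factors and filters, limma 3.58.1 on log2 FPKM, a length trend, a replicate block and each liver left out. A count of 0 allows 0.130 to 0.218 CPM (3 counts, counting error only). Replicates are separate samples by their labels, and p-values measure the spread between these samples, which may in part be technical. Transcripts were aligned with minimap2 2.31. The rule for named genes took all members, called genes of lists, the 3 most abundant tested genes of a pathway list and the 2 of a marker list, and the 5 most alike genes per class. Outside it, and chosen after their values were seen, are Ifi30, Ctss, H2-DMb1, H2-DMb2, Psme1, Psme2b, Psmb8, Psmb9, Psmb10, Tap2, Ciita, Nlrc5, Nfya, Creb1, Ifngr1, Ifngr2, Ttr, C1qb, Adgre1, Cd163, Coro1a, Ptprc, Arhgdib, Ccr2, Ly6c2, Cd79b, Ighd, Itgax, Ccr7, Stab1 and Lyve1. Members and lists were chosen with earlier results of these data known. H2-T3, H2-Eb2, Ncr1 and Ly6g were not analysed here.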

Additional observations from a re-analysis of the deposited data

How the results depend on the processing

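The number of genes passing over the whole table was 428 (255 higher, 173 lower), and it was 992 with DESeq2, 649 without a low-count filter, 128 with limma-trend on log2(FPKM + 1) without a filter, 251 with length-trend offsets, 136 with the replicate block and 36 to 335 with 1 liver left out. With library sizes alone 158 were higher and 161 lower. Of class II, 1 member (Cd74) passed with DESeq2, 0 to 1 with 1 liver left out, and its median log2 fold change was 0.49 to 1.46 in those fits, the highest without RD replicate 3. Of class I, 1 member (H2-D1) passed with DESeq2 and 0 with 1 liver left out. The class I median was 0.18 with library sizes alone, 0.075 with length-trend offsets and 0.11 to 0.32 with 1 liver left out. Cd74 had a log2 fold change of 0.98 with DESeq2 (adjusted p = 0.0131) and 1.46 without RD replicate 3 (adjusted p = 0.0434), and H2-D1 had 0.51 with DESeq2 (adjusted p = 0.00906). No member changed sign in any of the 17 alternatives, and class II minus class I stayed positive. Same-numbered livers of the diets deviated with correlations of -0.084, 0.12 and -0.030, so that the numbers do not pair them, and the replicate block left 0 members passing in either class. Causes of these moves were not tested. Depth was lowest for H2-DMa among the members, with 46 to 104 counts per liver.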
